A study of Drosophila melanogaster with 4 samples.

Results

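The peaks described here are the 358 stretches of the left arm of chromosome 2 (2L) of Drosophila melanogaster at which the authors called binding of the transcription factor Atonal in the eye disc. They were taken from a deposited list of 6065 peaks by position alone: every peak on 2L whose start lies below 21000000 bp. They make up 5.90% of the list. The limit sets aside the part of the arm next to the centromere, so that the members stand for the euchromatic arm, the gene-rich and mostly single-copy part. That label rests on the coordinate and was not checked against any chromatin mark.

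Atonal is a basic helix-loop-helix protein that acts as a proneural factor: it binds short E-box motifs together with its partner Daughterless and switches on the genes by which a cell takes a neural fate. In the eye disc, the larval epithelium that becomes the compound eye, it selects the founding R8 photoreceptor of each unit of the eye. In chromatin immunoprecipitation and sequencing (ChIP-seq), DNA bound by such a factor is recovered with an antibody, and a peak is a stretch recovered more often than in a control.

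The chromatin came from eye discs of third-instar (L3) larvae of the knock in IMAGO line ato:GFP, in which Atonal is fused to green fluorescent protein. These animals were kept at 25 degrees Celsius without treatment, and all libraries share that genotype, so the controls are input chromatin and not animals without the fusion. The labels describe 800 discs from 400 larvae, with 10% of the sonicated material kept as input and the rest precipitated with anti-GFP antibodies. There were 2 ChIP and 2 input libraries, but the deposited list gives 1 value per peak for the whole series, so no value below has an error between libraries, and depth per library is unknown. Whole discs were used, so the share of cells that held Atonal is not known from these data. Coordinates follow the deposited list, which uses sequence names of fly genome Release 5, except that starts and summits are counted from 1. No genome or annotation of that release was used, so peaks are named by position, with no gene, exon or sequence given.

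Peaks were found along the whole length of the 2L arm and were sparser toward its tip. The first began at 377872 bp and the last ended at 20895664 bp. Between 0 and 7 Mb there were 81 peaks (11.6 per Mb), between 7 and 14 Mb 133 peaks (19.0 per Mb), and between 14 and 21 Mb 144 peaks (20.6 per Mb). These counts were not tested against each other. Over the 21 bins of 1 Mb, the count had a median of 16 and ran from 7 to 27. The emptiest bins were 4 to 5 Mb with 7 peaks, 1 to 2 Mb with 8 and 0 to 1 Mb with 9, all in the outer part of the arm. The fullest were 11 to 12 Mb, 15 to 16 Mb and 20 to 21 Mb, with 27 peaks each. The variance of the counts over bins was 2.62 times their mean. On the other large arms, away from the centromere, it was 3.46 times on 3L, 4.82 on 3R and 7.78 on X. On 2R, where 1 bin held 120 peaks, it was 33.5 times.

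**Figure D1:**
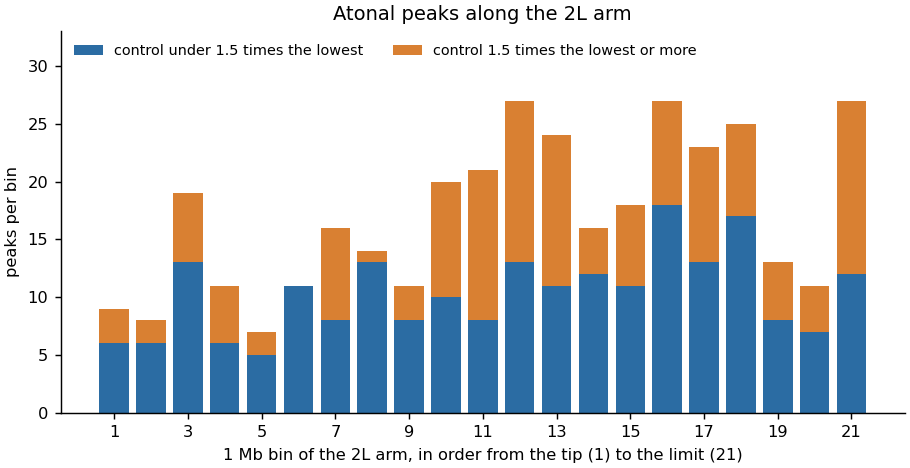
Number of Atonal peaks in each 1 Mb bin of the 2L arm (y axis), with bins in order from the tip of the arm to the 21 Mb limit (x axis) and each bar divided by the control level at the peaks. Bins hold 7 to 27 peaks; those with a low control level number 5 to 18 per bin and those with a raised one 0 to 15.

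The bins differed more in some peaks than in others. The fold and p-value that the authors' peak caller gave each peak imply the control level with which it was compared, given here as a multiple of the lowest control level in the list, a floor shared by 320 of the 6065 peaks. On the 2L arm 66 peaks (18.4%) were at that floor and 216 (60.3%, 95% Clopper-Pearson interval 55.1% to 65.4%) lay under 1.5 times the lowest; below, these are called low-control and the other 142 raised-control. Low-control peaks numbered 5 to 18 per bin, with a median of 11 and a variance of 1.246 times the mean. Raised-control peaks numbered 0 to 15 per bin, with a median of 6 and a variance of 2.97 times the mean. The bin from 5 to 6 Mb had 11 low-control peaks and no raised-control peak, whereas the bin from 20 to 21 Mb had 12 and 15. In the outer 7 Mb 55 of 81 peaks were low-control, against 75 of 133 in the middle 7 Mb and 86 of 144 in the inner 7 Mb. Outside the runs these 3 parts held 68, 87 and 108 peaks.

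The number of peaks per Mb on 2L did not differ detectably from that of any other large arm away from its centromere. It was 17.05 per Mb on 2L, 19.1 on 2R, 15.6 on 3L, 17.7 on 3R and 16.8 on X, where the other arms were counted without the 2 Mb next to the centromere. The ratio of 2L to 3L was 1.09 (95% interval 0.941 to 1.27, exact binomial test, adjusted p = 0.488), and the ratio to 2R was 0.892 (interval 0.769 to 1.04) with the same adjusted p. The arm was 0.964 times as dense as 3R (interval 0.837 to 1.11, adjusted p = 0.829 in the exact binomial test) and 1.01 times as dense as X (interval 0.872 to 1.18, adjusted p = 0.880 in the same test). None of the 4 two-sided tests found a difference, and each interval still allows one of 10% or more in at least 1 direction. Peaks are the units of these tests, so they cover counting error only, and peaks that lie close together are not independent.

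With 2R and X, the comparison changed with the kind of peak counted. These were also the arms with a smaller share of low-control peaks. It was 44.8% on 2R and 29.7% on X, against 60.3% on 2L, 57.5% on 3L and 61.8% on 3R. The density of low-control peaks on 2R, 8.56 per Mb, was nevertheless near that on 3L, 8.97 per Mb. Low-control peaks were 2.06 times as dense on 2L as on X (216 peaks, 10.3 per Mb, and 102 peaks, 5.0 per Mb; 95% interval 1.62 to 2.63, exact binomial test, adjusted p = 2.69e-09). These densities divide by whole lengths, because the length of each arm at a low control level is unknown. After peaks within 500 bp were merged into 1 region, 2L held 14.9 regions per Mb and X 10.8, a ratio of 1.38 (1.16 to 1.64, exact binomial test, adjusted p = 0.00106). For peaks with a score at or above the median of the list, in contrast, 2L was the sparser, with 4.95 per Mb against 8.63 on X (ratio 0.574, 0.446 to 0.736, exact binomial test, adjusted p = 2.61e-05) and 8.40 on 2R (ratio 0.590, 0.456 to 0.759, exact binomial test, adjusted p = 5.07e-05). The 2R ratio also turned above 1, at 1.22, when 3 Mb instead of 2 Mb beside the centromere were left out (exact binomial test, adjusted p = 0.0690), which took away a 1 Mb bin with 120 peaks. The fullest bin of the 2L arm held 27. The 3L and 3R ratios missed the threshold in every one of these settings. The 2R bin with 120 peaks, of 364 on that arm, is part of all 2R shares given here and below. It is also part of the 2R ratios, except where 3 Mb or more were left out. The 2R shares were not worked out without it.

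**Figure D2:**
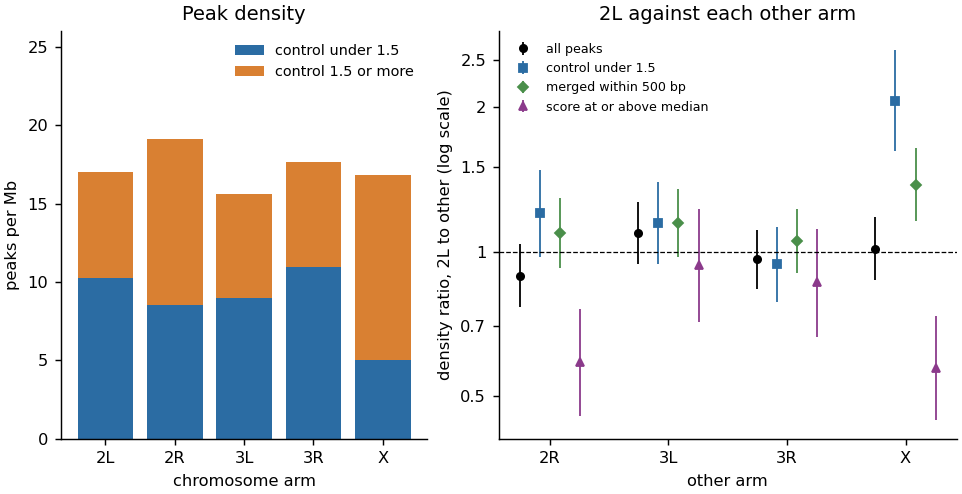
Left, peaks per Mb (y axis) on the 2L arm and on the other large arms away from the centromere (x axis), divided by control level in multiples of the lowest. Right, ratio of the density on 2L to that on each other arm (log scale) with 95% exact binomial intervals, for all peaks and for 3 other ways of counting; all 4 ratios lie between 0.892 and 1.09 for all peaks, while the X ratio runs from 0.574 to 2.06.

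Peaks of the arm mostly lay many kilobases apart, with some in close groups. The median of the 357 gaps was 21.9 kb, with quartiles of 1.77 and 72.3 kb. The longest gaps ran from 18638036 to 19154935 bp (517 kb), from 4159852 to 4661930 bp (502 kb) and from 5175490 to 5608119 bp (433 kb). The first of these ends at 1 of the strongest peaks of the arm, chr2L:19154936-19155277. The shortest gap was 77 bp. Another peak lay within 1000 bp of 111 of the 358 peaks (31.0%, 95% interval 26.2% to 36.1%). The same share was 33.9% on 3L, 35.7% on 3R, 50.5% on 2R and 60.9% on X, and was not tested between arms.

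Close spacing went with the control level. Of the 142 raised-control peaks, 94 (66.2%, 95% interval 57.8% to 73.9%) had another peak within 1000 bp, and their median distance to the nearest peak was 484.5 bp. Of the 216 low-control peaks, 17 (7.87%, 4.65% to 12.3%) had one, and their median distance was 16.2 kb. Divided further, such a neighbour was found for 1 of 66 peaks at the floor, 12 of 24 between 1.5 and 2 times the lowest, 48 of 78 between 2 and 3 times and 34 of 40 at 3 times or more. When only low-control peaks were kept, 9 of 216 (4.17%) had another such peak within 1000 bp. Close peaks are neighbours of each other and so are not independent, and the intervals of these shares are likely too narrow. Whether the control level accounts for the spacing was not tested.

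**Figure D3:**
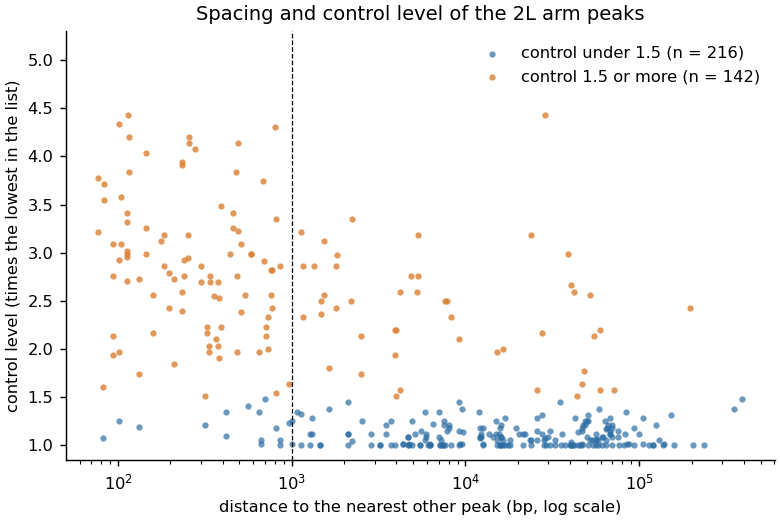
Control level in multiples of the lowest (y axis) against the distance to the nearest other peak in bp (x axis, log scale) for the 358 peaks of the 2L arm; the dashed line marks 1000 bp. Most raised-control peaks (94 of 142) lie left of the line, against 17 of 216 low-control peaks.

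Linking peaks no more than 5000 bp apart gave 240 groups, of which 190 were single peaks, 26 pairs and 7 triples. The other 17 were runs of 4 to 9 peaks, which held 95 of the 358 peaks (26.5%). Of those 95 peaks 89 were raised-control, and 13 of the 17 runs had no low-control peak at all. Outside the runs 210 of 263 peaks (79.8%) were low-control. The median fold was 1.71 inside the runs and 2.00 outside. No peak in a run reached 3-fold, which only 7 of all 358 peaks (1.96%) did. At least 2.5-fold was reached by 3 of the 95 peaks in runs, against 24 of the 358 (6.70%).

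Of the 17 runs, 9 spanned between 6645 and 7517 bp, and the other 8 spanned 1402 to 4660 bp. These spans depend on the distance used for linking, since 5 of the 9 long runs hold a gap of more than 2000 bp. Linked within 2000 bp, 4 of 12 runs spanned 6500 to 7600 bp; linked within 10000 bp, 9 of 23 did, and 8 were longer, up to 19145 bp. Those with 9 peaks were chr2L:9973836-9980480, chr2L:11540677-11547942 and chr2L:12558504-12565402. In the first, 9 peaks of 77 to 156 bp covered 14.2% of 6645 bp, at control levels of 1.97 to 3.19 times the lowest and folds of 1.496 to 2.13. In the third, peaks of 77 to 296 bp covered 19.1% of 6899 bp, at 1.91 to 3.19 times the lowest. The run from 11540677 bp differed from these: its peaks were 167 to 1008 bp wide and covered 65.8% of 7266 bp. It also holds the merged region with the most peaks, chr2L:11541927-11546099, in which 6 peaks lay within 4173 bp. The next regions by number of peaks were chr2L:10862973-10864374, with 5 peaks at 3.55 to 4.20 times the lowest control level, and chr2L:770547-772207, 1 of 6 regions with 3 peaks.

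**Figure D4:**
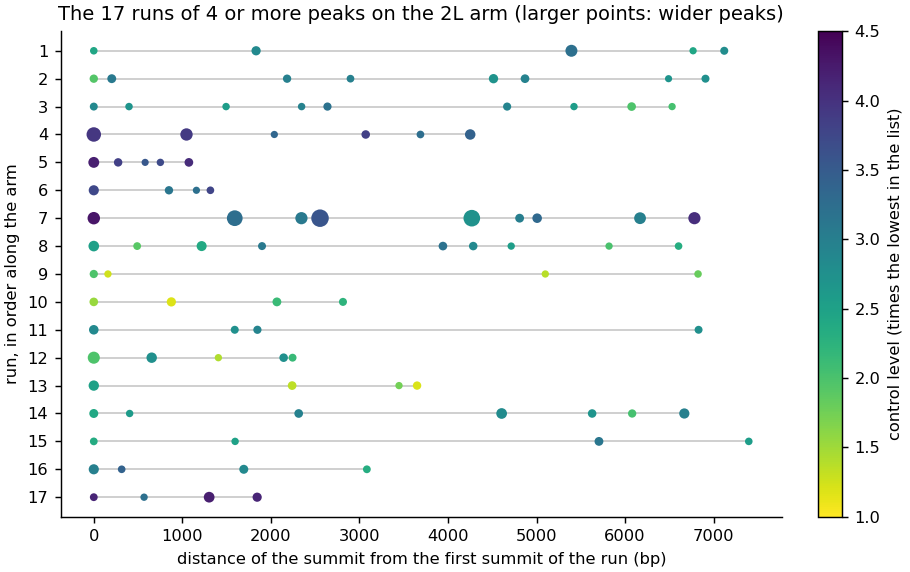
Layout of the 17 runs of 4 or more peaks on the 2L arm, 1 row per run in order along the arm. The x axis gives the distance of each summit from the first summit of its run in bp, colour gives the control level in multiples of the lowest, and larger points are wider peaks; 9 runs span about 7 kb and 8 span less than 5 kb.

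The enrichment of ChIP over control was low for most peaks of the arm. The median fold was 1.94, with quartiles of 1.74 and 2.12 and a range from 1.48 to 3.87. The median was also 1.94 on 3L, and it was 1.95 on 3R, 1.89 on X and 1.88 on 2R. Enrichment of 3-fold or more was seen at 7 of the 358 peaks (1.96%, 95% interval 0.790% to 3.99%), against 1.43% in the whole list, which lies within that interval. At least 2.5-fold was reached by 24 peaks (6.70%, 4.34% to 9.81%), against 6.88% in the whole list. The other arms had larger shares at 2.5-fold, with 10.2% on 2R, 8.83% on 3L, 7.24% on 3R and 14.9% on X. Over these 4 together it was 10.0% (8.57% to 11.7%), which lies above the 2L interval, although the intervals overlap. The shares on 3L and 3R lie within the 2L interval, and those on 2R and X above it. The share at 3-fold was 2.198% on 2R, 3.70% on 3L, 1.97% on 3R and 4.08% on X, and neither set of shares was tested against 2L. The largest fold on 2L, 3.87, was below the largest on 3L (5.54), 3R (6.28) and X (4.54) and above that on 2R (3.58).

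All 7 peaks above 3-fold were low-control, and 6 of them were at least 200 bp wide. The strongest by −log10 q was chr2L:6646262-6646651, which spanned 390 bp at 3.87-fold; its −log10 q was 19.9, and it ranked 21 in the whole list. At its summit the ChIP level was 83 against a control level of 20.7, which is 1.18 times the lowest. Second came chr2L:19154936-19155277, 342 bp long and 3.87-fold, at a control level of 1.02 times the lowest and a −log10 q of 17.2; the nearest other peak was 138569 bp away. These were the only peaks of the arm above 3.5-fold.

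The other peaks above 3-fold had folds of 3.02 to 3.35 and were spread along the arm. They were chr2L:3632925-3633218 (3.35-fold, 294 bp), chr2L:16146157-16146271 (3.24-fold, 115 bp), chr2L:14226450-14226677 (3.16-fold, 228 bp), chr2L:5882161-5882463 (3.10-fold, 303 bp) and chr2L:7512544-7512843 (3.02-fold, 300 bp). The peak at 16146157 bp was the only narrow one among the 7. Just under the limit were chr2L:1063162-1063411 at 2.95-fold, chr2L:13878813-13878967 at 2.92-fold and chr2L:3417298-3417712 at 2.91-fold. None of the 7 had another peak within 1000 bp, a neighbour that only 7.87% of all low-control peaks had. Their median distance to the nearest was 56.3 kb, and the shortest was 2533 bp. Of the 24 peaks of at least 2.5-fold, 2 had such a neighbour, the closest at 82 bp.

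A high −log10 q did not always go with a high fold. The third highest −log10 q of the arm, 16.1, belonged to chr2L:20152605-20152782, with a fold of 2.56 and a ChIP level of 130 against a control level of 50.1. Peaks chr2L:20151212-20151307 and chr2L:20208806-20208909 had a −log10 q of 12.01 and 11.3 at folds of 2.22 and 2.19, with control levels of 3.42 and 3.35 times the lowest. All 3 were under 200 bp wide and lay between 20151212 and 20208909 bp, in the bin that had the most raised-control peaks. The peak at 20152605 bp was the only raised-control peak of the arm to reach 2.5-fold (1 of 142), against 23 of 216 low-control peaks.

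Fold was lower where the control level was higher. Spearman's rho between them was −0.67 over the 358 peaks, which share libraries, and the control level is part of the fold. Among the 2L peaks the smallest fold was 1.89 at the floor, 1.60 between 1.5 and 2 times the lowest and 1.48 at 3 times or more. The list holds only peaks that passed the caller's limit, with a largest q of 0.0499. Under the Poisson formula a lower control level needs a larger fold to pass. These smallest folds are therefore largely set by that limit, and its share in rho was not tested. The median fold was 2.06 among low-control peaks and 1.68 among raised-control peaks, while the median −log10 q was 2.64 and 2.92. Among low-control peaks alone the median fold was 2.06 on 2L, 2.06 on 3R, 2.09 on 3L, 2.11 on 2R and 2.22 on X.

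**Figure D5:**
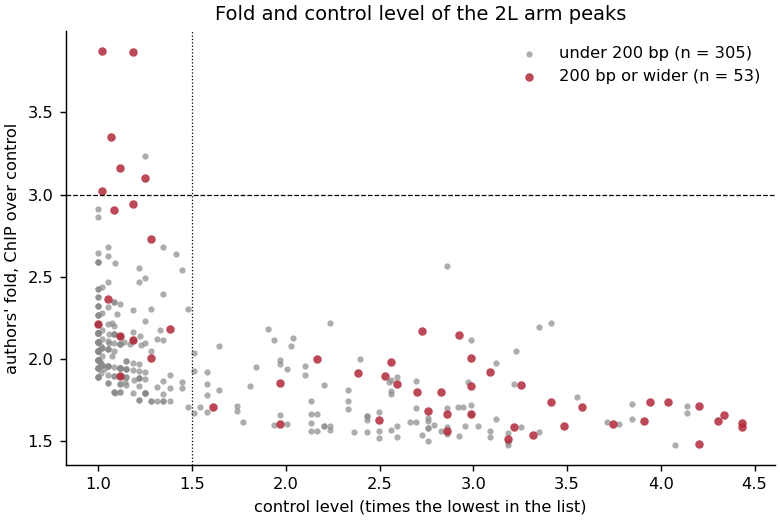
Fold of ChIP over control as given by the authors' peak caller (y axis) against the control level in multiples of the lowest (x axis) for the 358 peaks of the 2L arm, with wide peaks in red; lines mark 3-fold and 1.5 times the lowest. The 7 peaks above 3-fold all lie under 1.5 times the lowest control level and 6 of them are at least 200 bp wide, while 37 of the 53 wide peaks lie at raised control levels with folds up to 2.17.

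Peaks of the arm were short, and the wide ones were of different kinds. The median width was 110 bp (quartiles 85 and 156 bp, range 69 to 1118 bp), and 136 peaks (38.0%) were under 100 bp. Median width was 108 bp on 3L, 111 bp on 3R, 117 bp on 2R and 126 bp on X. At least 200 bp were spanned by 53 peaks (14.8%, 95% interval 11.3% to 18.9%), against 19.5% in the whole list, 22.5% on 2R, 12.8% on 3L, 16.0% on 3R and 25.1% on X, which was not tested. Of the 53, 16 were low-control and 37 raised-control. Among the 16, 6 reached 3-fold and 9 reached 2.5-fold, and the median fold was 2.82. Among the 37, no fold was above 2.17 and the median was 1.71. Narrow low-control peaks had a median fold of 2.05, with 1 of 200 at 3-fold and 14 of 200 at 2.5-fold. Of the 24 peaks of the arm at 2.5-fold or more, 15 were under 200 bp wide. Width and fold are read from the same called peak, and the split at 200 bp was chosen with earlier results of these data known.

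The 5 widest peaks were all raised-control. The widest, chr2L:8428585-8429702, spanned 1118 bp with a fold of 1.59 at 4.43 times the lowest control level and, unlike the next 4, lay far from other peaks, 28712 bp from the nearest. Next were 3 peaks of the run that starts at 11540677 bp, namely chr2L:11543397-11544404 (1008 bp, 1.71-fold), chr2L:11544575-11545471 (897 bp, 2.17-fold) and chr2L:11541927-11542717 (791 bp, 1.85-fold). The fifth was chr2L:771457-772207, 751 bp wide and 1.61-fold, also at 4.43 times the lowest. Among the wide peaks the lowest folds were 1.49 at chr2L:10862973-10863289, 1.51 at chr2L:7959762-7959974 and 1.54 at chr2L:11545883-11546099, all at more than 3 times the lowest control level.

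Summits lay near the middle of the peak only in part of the cases. The median offset of the summit from the start was 50.5 bp, and the median position was 48.1% of the width (95% interval 44.0% to 51.3%). The summit fell between 40% and 60% of the width in 100 of the 358 peaks (27.9%), and in the outer 10% at either end in 68 peaks (19.0%). In 5 peaks it was the first base and in 5 the last. Among the 53 wide peaks 18 summits (34.0%) were in that middle part, against 82 of 305 (26.9%) among narrower ones. Over the other 4 arms the share was 27.9%, equal to that of 2L at this precision. Among the 24 peaks of at least 2.5-fold, 10 summits (41.7%) fell between 40% and 60% of the width, which was not tested. In the strongest peak, chr2L:6646262-6646651, the summit lay 246 bp from the start, at 63.2% of the width.

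The peaks on either side of the 21 Mb limit were weak on the inside and mixed on the outside. The last members were chr2L:20836175-20836269 with a fold of 1.59 and chr2L:20895579-20895664 with a fold of 1.68, at 2.201 and 1.58 times the lowest control level. The first peaks beyond it were chr2L:21042146-21042308 with a fold of 2.34 and chr2L:21075285-21075390 with a fold of 1.80, at 2.14 and 1.08 times the lowest.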

How the data were processed

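ChIP-seq of Atonal fused to green fluorescent protein in L3 eye discs (2 ChIP and 2 input libraries) was deposited by the authors as 1 peak list with 10 columns and no header. The submitters' processing notes name Bowtie2 2.2.1; for the caller of the peaks, the build and any pooling, the entry is: not given in the sources used here. Columns were read from the narrowPeak layout and the values. The deposited score is 10 times −log10 q cut to a whole number in 100% of peaks, and the fold ratio of ChIP to control, the −log10 p-value and the −log10 q-value were deposited as the authors' peak caller gave them, with a largest q of 0.0499. Starts were shifted to count from 1.

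ChIP and control levels were worked out from fold and p under the formula of MACS2, where fold is (ChIP + 1)/(control + 1) and p a Poisson upper tail. All 6065 peaks had a solution with a whole-number ChIP level, to within 1e-04 of −log10 p. A level within 0.1% of the lowest counted as the floor. Levels are not library totals. For the other arms, the end of the last peak stood for the length. Distances run from the end of a peak to the start of the next, among the 358 peaks. The density of 2L was set against each other arm in an exact binomial test, two-sided, with a Clopper-Pearson interval, Benjamini-Hochberg adjusted over the 4 tests. Intervals of medians are exact binomial ones from order statistics. All intervals cover counting error only and treat peaks as independent, which close peaks are not. Other values are descriptions without a test.

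Peaks named are the 10 highest by −log10 q, the 10 by fold, the 5 widest, the 3 wide ones of lowest fold, the 3 merged regions with most peaks (of 6 tied regions the one nearest the tip), the 3 fullest and emptiest bins, the 3 longest gaps and 2 peaks on each side of the limit; runs were added later. The members, limits and rule were chosen with earlier results of these data known. Python 3.11.15, SciPy 1.17.1 and pandas 2.3.3 were used, and the functions were checked on simulated data.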

Additional observations from a re-analysis of the deposited data

How the results depend on the processing

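No paired analysis was possible because each peak has 1 value for the whole series, and for the same reason no replicate could be left out. Depth and the error between libraries are unknown. Of 48 alternative values for 15 results, 22 counted as unmoved: a density ratio with the same direction and side of the threshold, a median or share within the interval of the value reported, or a count within 1.5 times of it. For the density ratios, a score at or above the median gave 0.590 to 2R, 0.937 to 3L and 0.574 to X. Merging within 500 bp gave 1.09 to 2R, 1.05 to 3R and 1.38 to X. A control level under 1.5 times the lowest gave 1.20 to 2R and 2.06 to X. Leaving out 3 Mb beside the centromere gave 1.22 to 2R and 0.976 to X, and leaving out 4 Mb gave 1.23 and 0.975. Only the ratios of 0.590, 0.574, 1.38 and 2.06 passed the exact binomial test after adjustment. That test treats peaks as independent, which close peaks are not. The ratio of 0.590 was not worked out without the 2R bin of 120 peaks. The 358 peaks fell to 104 at or above the median score and to 216 with a low control level. In these 2 sets the median fold was 2.18 and 2.06. At or above the median score the median width was 144.5 bp, the median summit position 42.7% of the width, the share at 3-fold 6.73% and the low-control share 48.1%. Merging raised the low-control share to 68.9%. A fold limit of 2.5 gave a share of 6.70%. The share with a near neighbour was 4.17% among low-control peaks, 22.1% at 500 bp and 37.2% at 2000 bp. Alternatives chosen after seeing the data gave 12 runs when linked within 2000 bp and 23 within 10000 bp, of which 4 and 9 spanned 6500 to 7600 bp. The cause of these changes was not tested.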

Other observations

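The layout of the long runs, described after the values were seen, is given as values. In the run chr2L:9973836-9980480 the 9 summits lay 0, 398, 1494, 2347, 2639, 4668, 5423, 6074 and 6531 bp from the first. In chr2L:16512065-16519012, with 7 peaks over 6948 bp, they lay 0, 405, 2314, 4606, 5628, 6080 and 6669 bp from the first. The runs chr2L:6991503-6998512 with 8 peaks and chr2L:14984481-14991490 with 4 peaks, both spanned 7010 bp, with median control levels of 2.86 and 2.81 times the lowest. The run chr2L:12782074-12789090 spanned 7017 bp with 4 peaks, of which 2 were low-control. Whether the long runs share sequence was not tested, since no genome sequence was used. Runs of 4 or more peaks numbered 17 on 2L, 18 on 2R, 14 on 3L, 20 on 3R and 28 on X away from the centromeres, and held 26.5%, 46.7%, 29.1%, 31.6% and 59.5% of the peaks there.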
